A study of Arabidopsis thaliana with 9 samples.

Results

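SWEET proteins are membrane carriers that let sugars pass down their concentration gradient, out of a cell, into it or across the vacuole membrane. Carriers of clade I (SWEET1 to SWEET3) and clade II (SWEET4 to SWEET8) move mainly hexoses, those of clade III (SWEET9 to SWEET15) mainly sucrose, and those of clade IV (SWEET16 and SWEET17) sit in the vacuole membrane. In flowers they are known for feeding developing pollen in the anther, for nectar secretion and for filling seeds, and a growing pollen tube takes up sugar from the pistil tissue around it. The genes described here are 10 Arabidopsis thaliana SWEET genes chosen by name: SWEET1, SWEET4, SWEET5, SWEET7, SWEET8, SWEET10, SWEET11, SWEET12, SWEET13 and SAG29, which is SWEET15. An array probe set that lists the gene and no other stood for each. SWEET12 had no listed probe set and is not analysed here, so 9 of the 10 genes were measured, out of 13286 genes with such a probe set. The remaining 7 SWEET genes were measured too and are given after them.

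RNA came from whole pistils at stage 14 of the male-sterile mutant ms1 in the Ler-0 ecotype. One group had been pollinated with Col-0 pollen that carried the alleles myb97-1, myb101-4 and myb120-3, another with wild-type Col-0 pollen, and the last had not been pollinated. Both pollinated groups were left for 8 hours. Each group had 3 arrays, labelled as biological replicates, and each RNA was taken from a collection of 100 pistils. All groups share the male-sterile Ler-0 pistil, and the pollen of both pollinated groups came from another ecotype than the pistil. The mutated factors MYB97, MYB101 and MYB120 act in the pollen tube, and none of them had a listed probe set, so the mutant labels were not checked on them.

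Values are log2 of the deposited array intensity of a probe set, which compares arrays but not different genes. Median intensities were 109.9 to 114.6 with mutant pollen, 112.2 to 117.0 with wild-type pollen and 103.3 to 104.7 without pollination. Of 12 pollen markers 6 were measured, and all 6 were higher with both kinds of pollen, where 22.3% (mutant) and 23.4% (wild-type) of all probe sets were. The log2 rise ran from 1.14 (MGH3) to 6.50 (LAT52-like) with mutant pollen and from 0.98 to 6.64 with wild-type pollen. The summed intensity, mostly that of LAT52-like, was 5810 to 6990 with mutant pollen and 6420 to 7670 with wild-type pollen, against 128 to 158 in unpollinated pistils. No pollen marker passed between the pollen genotypes, though ANX1 was lower on every mutant array than on every wild-type array (-0.39, adjusted p = 0.82, limma). Of the carpel markers, 2 of 8 were measured, with a summed intensity of 345 to 369 with mutant pollen, 333 to 376 with wild-type pollen and 279 to 344 without. SPT rose by 0.64 ± 0.09 with mutant pollen (adjusted p = 0.000323, limma) and by 0.71 ± 0.09 with wild-type pollen (adjusted p = 0.00014, limma), while INO did not pass (-0.22 ± 0.11, adjusted p = 0.135, and -0.30 ± 0.11, adjusted p = 0.0525). The tapetum genes A9 and AMS lay at 3.36 to 3.80, with a summed intensity of 23.2 to 24.5 with mutant pollen, 22.6 to 24.6 with wild-type pollen and 22.7 to 24.0 without. The part of pollen or carpel RNA in the SWEET differences was not tested. Unpollinated array 3 was the least like any other array (r = 0.9931 with its nearest, computed over probe sets and so not over replicates), and it was the lowest of its group for 7 of the 9 SWEET genes, where it was the lowest for 35.4% of all probe sets. Because pollen tubes and pistil were extracted together, fewer cells of a type and less RNA per cell cannot be told apart in any of these values.

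Setting pollinated against unpollinated pistils asks which SWEET transcripts differ once tubes have grown in the pistil. With mutant pollen SWEET8 (1.93-fold) and SWEET13 (1.71-fold) were higher than in unpollinated pistils, while SWEET11 (1.81-fold), SWEET10 (1.33-fold) and SWEET4 (1.2-fold) were lower. With wild-type pollen SWEET8 (2.07-fold), SWEET13 (1.94-fold) and SWEET7 (1.26-fold) were higher, while SWEET11 (2.05-fold), SWEET10 (1.71-fold) and SWEET4 (1.19-fold) were lower. A gene passed where limma's test, adjusted by Benjamini-Hochberg over all 22746 probe sets, gave a p under 0.05. With mutant pollen 5 of the 9 genes passed, 2 higher and 3 lower, where 41.5% of all probe sets passed, 22.3% higher and 19.2% lower. With wild-type pollen 6 of the 9 passed, 3 higher and 3 lower, where 43.6% of all probe sets passed, 23.4% higher and 20.2% lower. The arrays of the groups did not overlap for 6 of the 9 genes with mutant pollen, 2 higher and 4 lower, where this held for 50.5% of all probe sets, 27.1% higher and 23.4% lower. With wild-type pollen they did not overlap for 7 of the 9, 4 higher and 3 lower, where the shares were 52.8%, 27.9% and 24.9%. Over all 16 measured SWEET genes 7 passed in each comparison, or 43.8%, close to the share of all probe sets, so the counts do not set the family apart. The median log2 difference of the 9 genes was -0.27 with mutant pollen and -0.25 with wild-type pollen, against 0.01 and 0.004 over all probe sets.

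**Figure D1:**
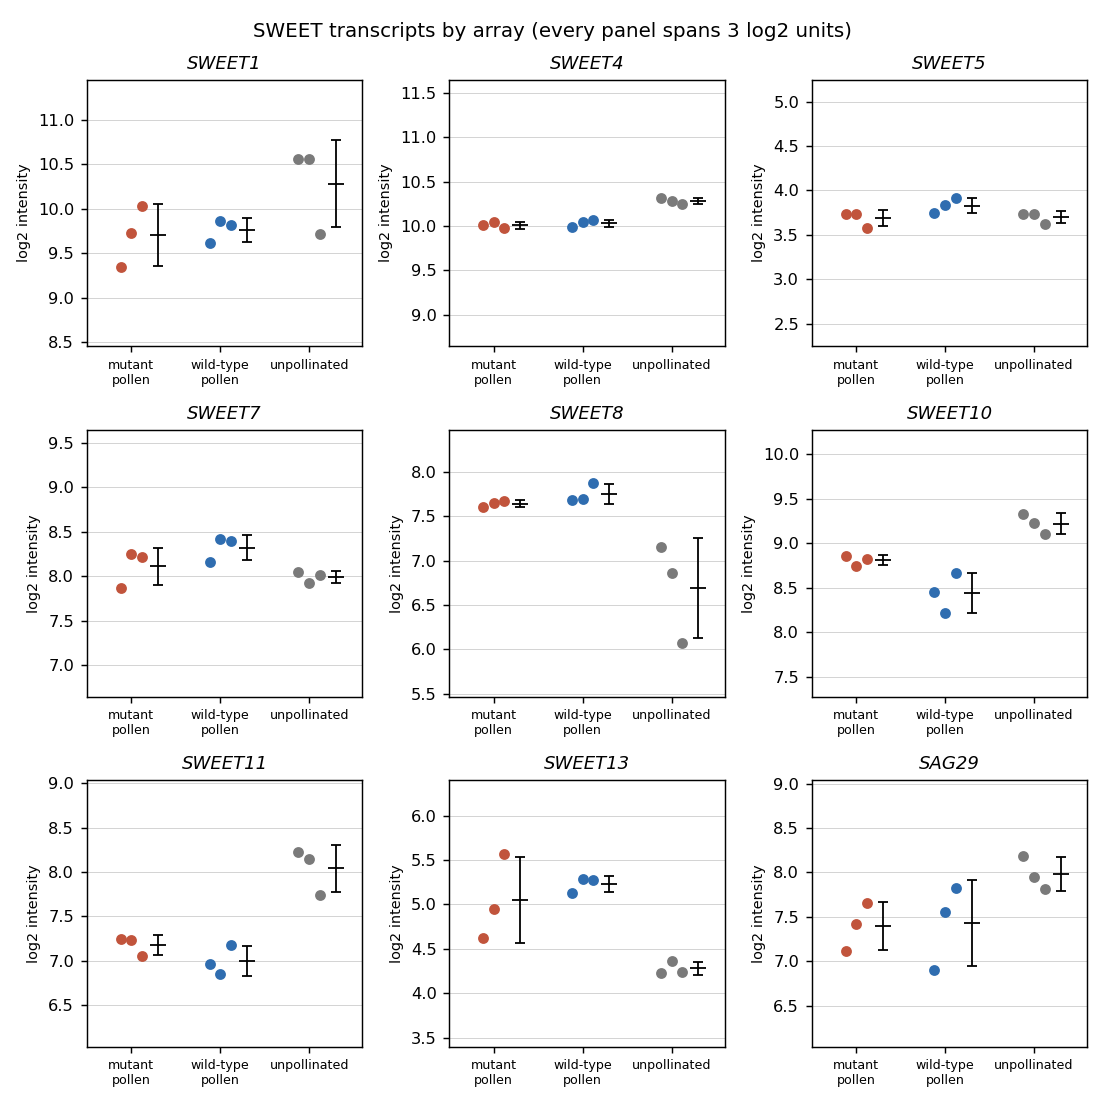
Log2 intensity (vertical axis) of 9 SWEET genes on each of the 9 arrays, with mutant pollen, wild-type pollen and no pollination from left to right. Points are arrays in the order of their replicate numbers, bars are the mean ± SD (n = 3), and every panel spans 3 log2 units. For SWEET4, SWEET8, SWEET10, SWEET11 and SWEET13 no array of a pollinated group overlaps the unpollinated arrays.

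SWEET8, also called RPG1, is a hexose carrier known for its part in building the pollen wall in the anther. Its log2 level was 7.60, 7.65 and 7.67 with mutant pollen, 7.68, 7.69 and 7.87 with wild-type pollen, and 7.15, 6.86 and 6.07 in unpollinated pistils. All 6 pollinated arrays lay above all 3 unpollinated ones, and the unpollinated arrays spread more widely (SD 0.56) than those with mutant (0.04) or wild-type pollen (0.11). The log2 difference from unpollinated pistils was 0.95 ± 0.21 (SE, adjusted p = 0.0053, limma) with mutant pollen and 1.05 ± 0.21 (adjusted p = 0.00269, limma) with wild-type pollen. Without unpollinated array 3, which was the lowest, the differences were 0.64 (adjusted p = 0.00105) and 0.74 (adjusted p = 0.000383). Of 6 tapetum and stamen markers 2 were measured, the tapetum genes A9 and AMS, and both were dim in every group. Whether these 2 genes would show anther tissue in such samples was not tested. With mutant pollen A9 fell by 0.23 ± 0.07 while AMS rose by 0.27 ± 0.08, and with wild-type pollen neither A9 (-0.17 ± 0.07) nor AMS (0.14 ± 0.08) passed.

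SWEET13, also known as RPG2, is a sucrose carrier of clade III that also moves gibberellin and acts in the anther. It had log2 levels of 4.62, 4.95 and 5.57 with mutant pollen, 5.13, 5.29 and 5.27 with wild-type pollen, and 4.23, 4.36 and 4.24 in unpollinated pistils. Every pollinated array was above every unpollinated one, and the mutant arrays differed among themselves more (SD 0.48) than the others (0.09 with wild-type pollen and 0.07 unpollinated). The log2 difference was 0.77 ± 0.19 (adjusted p = 0.00811, limma) with mutant pollen and 0.95 ± 0.19 (adjusted p = 0.00228, limma) with wild-type pollen. Without mutant array 3, the highest of its group, the difference with mutant pollen was 0.51 (adjusted p = 0.00755). The gene was dim in unpollinated pistils, at intensities of 18.8 to 20.5, where the lowest 25% of probe sets on an array ended at 18.3 to 20.3. Set against the same array's own end, it lay in that lowest 25% on 0 of 9 arrays. With 16 added to every intensity before the log, the differences were smaller, 0.48 and 0.60, and both still passed. SWEET14, the gene most like SWEET13 and its partner in gibberellin transport, stayed at 3.84 to 4.04 on all 9 arrays. Whether the SWEET13 probe set also reads another SWEET transcript was not tested.

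SWEET7 is a hexose carrier of the same clade as SWEET8. Its levels were 7.87, 8.25 and 8.21 with mutant pollen, 8.16, 8.42 and 8.39 with wild-type pollen, and 8.05, 7.92 and 8.01 without pollination. The wild-type arrays were all above the unpollinated ones, whereas the mutant arrays overlapped them. The log2 difference was 0.12 ± 0.11 (95% interval -0.13 to 0.37, adjusted p = 0.441) with mutant pollen and 0.33 ± 0.11 (adjusted p = 0.0363, limma) with wild-type pollen. The call with wild-type pollen was lost without any 1 of unpollinated arrays 1, 2 and 3 or wild-type arrays 2 and 3 (0.28 to 0.36, adjusted p = 0.0531 to 0.122) and when each array's median was subtracted (0.19, adjusted p = 0.157).

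SWEET5, or VEX1, is named for its activity in the vegetative cell of pollen, which forms the tube. It lay among the lowest 25% of probe set intensities on all 9 arrays. The log2 levels were 3.74, 3.74 and 3.58 with mutant pollen, 3.75, 3.84 and 3.91 with wild-type pollen, and 3.73, 3.73 and 3.62 in unpollinated pistils. The wild-type arrays were just above the unpollinated ones, and the mutant arrays overlapped them. Differences from unpollinated pistils were -0.005 (95% interval -0.18 to 0.17) with mutant pollen and 0.14 (-0.04 to 0.31, adjusted p = 0.186) with wild-type pollen, so a rise of more than 0.31 on the log2 scale lies outside the interval at this probe set. For comparison, PLIM2a, a pollen actin-bundling protein gene, rose by 5.26 ± 0.16 with mutant pollen and by 5.24 ± 0.16 with wild-type pollen on the same arrays. What share of the true change so dim a probe set can show was not tested.

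SWEET11 is a sucrose exporter of clade III that loads the phloem in leaves and feeds the embryo in seeds. It read 7.25, 7.24 and 7.06 with mutant pollen, 6.97, 6.85 and 7.18 with wild-type pollen, and 8.22, 8.15 and 7.74 in unpollinated pistils. All pollinated arrays were below all unpollinated ones. The log2 level fell by 0.85 ± 0.13 (adjusted p = 0.000565, limma, 1.81-fold lower) with mutant pollen and by 1.04 ± 0.13 (adjusted p = 0.000142, limma) with wild-type pollen. The call held under every alternative setting tried, in which the level fell by 0.76 or more with mutant pollen and by 0.94 or more with wild-type pollen. None of the phloem markers SUC2, APL, SEOR1 and PP2A1 had a listed probe set, so the fall could not be set beside the amount of phloem RNA.

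SWEET10 is a sucrose carrier of clade III known from the shoot apex, where the flowering signal FT raises it. It had levels of 8.86, 8.74 and 8.82 with mutant pollen, 8.45, 8.22 and 8.66 with wild-type pollen, and 9.33, 9.23 and 9.10 in unpollinated pistils. The 3 groups did not overlap: the arrays with mutant pollen were intermediate, those with wild-type pollen lowest and the unpollinated ones highest. The log2 level fell by 0.41 ± 0.11 (adjusted p = 0.0128, limma, 1.33-fold lower) with mutant pollen and by 0.78 ± 0.11 (adjusted p = 0.000291, limma) with wild-type pollen. In the TAIR10.1 annotation SWEET10 and SWEET13 are neighbours, with 0 protein-coding genes between them. The neighbours moved in opposite directions, SWEET13 higher and SWEET10 lower with both kinds of pollen.

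SWEET4, a hexose carrier, changed least among the genes that passed but varied least between replicates. Its levels were 10.01, 10.05 and 9.98 with mutant pollen, 9.99, 10.04 and 10.07 with wild-type pollen, and 10.31, 10.28 and 10.25 in unpollinated pistils. Both pollinated groups lay below the unpollinated arrays, and the SD within a group was 0.03 to 0.04. The fall was 0.27 ± 0.07 (adjusted p = 0.00808, limma) with mutant pollen and 0.25 ± 0.07 (adjusted p = 0.0114, limma) with wild-type pollen.

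SWEET1 and SAG29 had lower means in both pollinated groups but did not pass. SWEET1, a glucose carrier of the plasma membrane, was at 9.34, 9.73 and 10.03 with mutant pollen, 9.61, 9.86 and 9.82 with wild-type pollen, and 10.56, 10.56 and 9.71 in unpollinated pistils. Unpollinated array 3 lay among the pollinated arrays, while the other 2 unpollinated arrays were above all of them. The log2 difference was -0.58 (95% interval -1.09 to -0.07, adjusted p = 0.0684) with mutant pollen and -0.51 (-1.03 to -0.002, adjusted p = 0.0973) with wild-type pollen. Without unpollinated array 3 it was -0.86 (adjusted p = 0.00331, limma) and -0.80 (adjusted p = 0.00465, limma), and both calls were made. Without mutant array 3 the difference with mutant pollen also passed (-0.74, adjusted p = 0.0428), as did both differences when array medians were subtracted (-0.69, adjusted p = 0.0291, and -0.65, adjusted p = 0.0337).

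SAG29 is a sucrose carrier of clade III that rises in senescing leaves and under osmotic stress. Its levels were 7.12, 7.42 and 7.66 with mutant pollen, 6.90, 7.55 and 7.83 with wild-type pollen, and 8.18, 7.95 and 7.81 in unpollinated pistils. The mutant arrays were all below the unpollinated ones, and wild-type array 3 overlapped them. The log2 difference was -0.58 (95% interval -1.06 to -0.10, adjusted p = 0.0552) with mutant pollen and -0.55 (-1.04 to -0.07, adjusted p = 0.0628) with wild-type pollen. With wild-type pollen the difference was -0.29 (adjusted p = 0.213) without wild-type array 1, and it passed without wild-type array 3 (-0.76, adjusted p = 0.0211). With mutant pollen it passed without wild-type array 1 (-0.58, adjusted p = 0.0138) or 3 (-0.58, adjusted p = 0.0369), which enter only through the shared estimate of the spread, or without mutant array 3 (-0.71, adjusted p = 0.047). It also passed with mutant pollen when wild-type arrays were kept out of the fit (adjusted p = 0.0198). After array medians were subtracted it passed in both comparisons (-0.69 each, adjusted p = 0.021 with mutant and 0.0191 with wild-type pollen), as it did after renewed quantile normalization (-0.61, adjusted p = 0.0411, and -0.60, adjusted p = 0.0413). None of the 5 senescence markers SAG12, SAG13, NAP, SGR1 and PAO had a listed probe set.

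**Figure D2:**
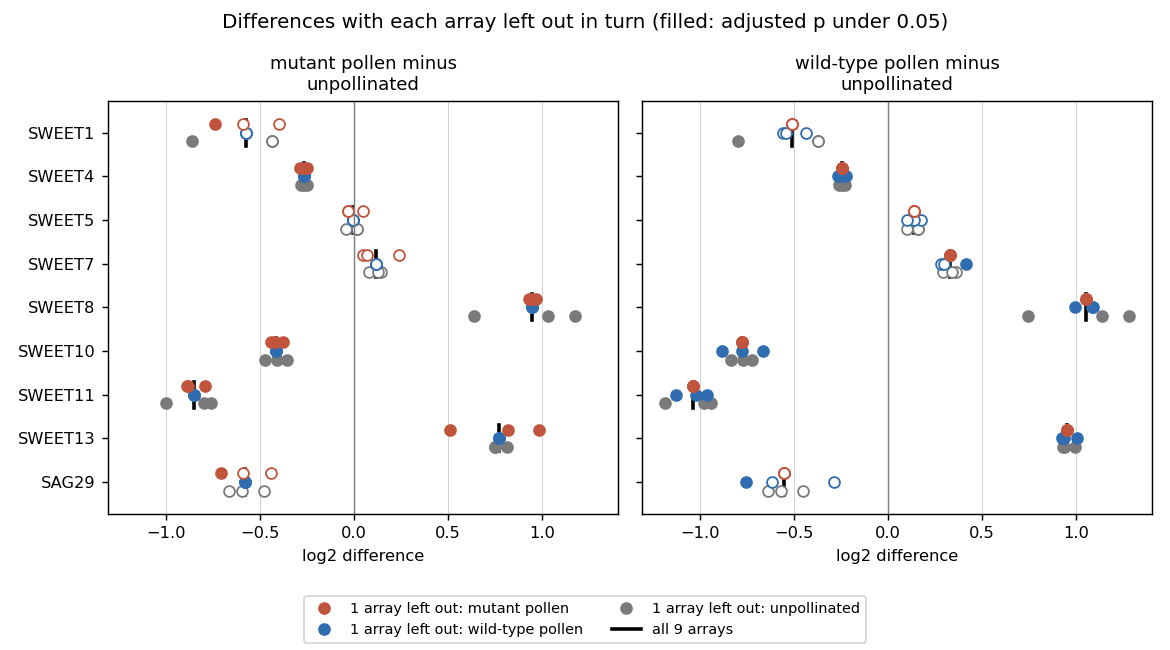
Log2 differences of 9 SWEET genes from unpollinated pistils (horizontal axis), for mutant pollen in the left panel and wild-type pollen in the right. Black bars are the values from all 9 arrays, and each point leaves out 1 array, coloured by its group and filled where the adjusted p was under 0.05. SWEET4, SWEET8, SWEET10, SWEET11 and SWEET13 are filled throughout, while SWEET1, SWEET7 and SAG29 depend on single arrays.

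Setting mutant against wild-type pollen asks whether SWEET transcripts of pollinated pistils depend on the 3 MYB factors in the pollen. None of the 9 genes passed limma's test (0 of 9, where 0.312% of all probe sets passed, 0.0264% higher and 0.286% lower), and 1 of 9, SWEET10, had an unadjusted p under 0.05. SWEET10 was higher with mutant than with wild-type pollen by 0.36 ± 0.11 (95% interval 0.12 to 0.61, 1.29-fold, adjusted p = 0.602), and its adjusted p was 0.261 to 1.0 over the alternative settings. The groups also did not overlap for SWEET5 (-0.14, interval -0.32 to 0.03) and SWEET8 (-0.11, -0.58 to 0.37), both lower with mutant pollen. That makes 3 of 9 genes, 1 higher and 2 lower, where the groups did not overlap for 9.96% of all probe sets, 4.73% higher and 5.23% lower. For SWEET5 the highest mutant array was at 3.74 and the lowest wild-type array at 3.75, and for SWEET8 at 7.67 and 7.68. The count of 3 therefore turns on the last printed digit for 2 of them, and SWEET5 was dim on all 9 arrays. For the remaining genes the intervals were -0.17 to 0.13 for SWEET4, -0.46 to 0.04 for SWEET7, -0.11 to 0.48 for SWEET11, -0.60 to 0.24 for SWEET13, -0.57 to 0.45 for SWEET1 and -0.51 to 0.46 for SAG29. These intervals leave out a difference of more than 0.61 in either direction for each of the 9 genes.

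**Figure D3:**
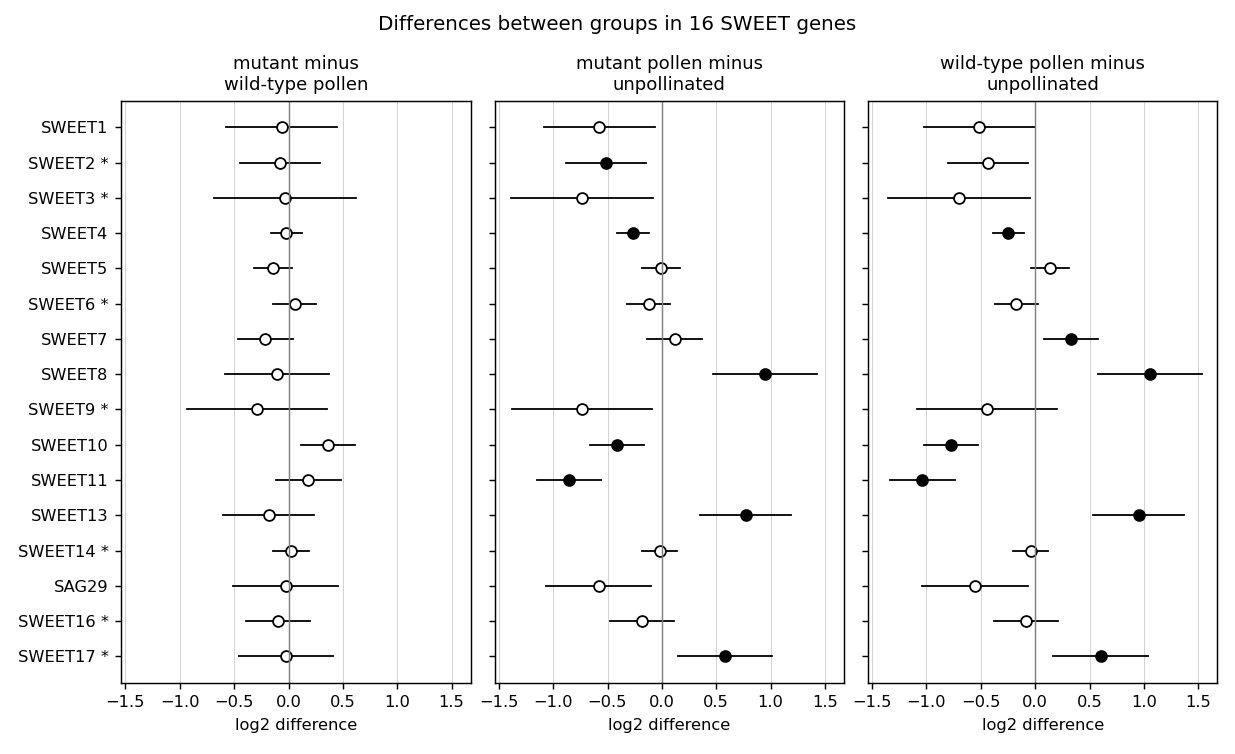
Log2 differences (horizontal axis) with 95% intervals from the fit of all 9 arrays, for mutant minus wild-type pollen, mutant pollen minus unpollinated and wild-type pollen minus unpollinated. Filled points passed at an adjusted p under 0.05, and stars mark the SWEET genes outside the named 10. No point is filled in the left panel, and SWEET8 and SWEET11 have the highest and lowest values with wild-type pollen, 1.05 and -1.04.

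Of the other 7 SWEET genes, SWEET17 rose with both kinds of pollen and SWEET2 fell with mutant pollen. SWEET17 is a fructose carrier of the vacuole membrane. It was at 7.95, 7.99 and 7.50 with mutant pollen, 8.00, 7.78 and 7.73 with wild-type pollen, and 7.65, 7.23 and 6.82 in unpollinated pistils. Its log2 difference was 0.58 ± 0.20 (adjusted p = 0.0366, limma) with mutant pollen and 0.60 ± 0.20 (adjusted p = 0.0298, limma) with wild-type pollen. Without unpollinated array 3 neither passed (0.37, adjusted p = 0.111, and 0.40, adjusted p = 0.091), nor did they with array medians subtracted (0.47 in both, adjusted p = 0.0731 and 0.0692). In all, the call with mutant pollen was lost in 4 of 7 other settings and without 6 of the 9 single arrays. The call with wild-type pollen was lost in 1 of 7 other settings and without 5 of the 9 single arrays.

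SWEET2, a carrier of the vacuole membrane studied in roots, had a log2 difference of -0.51 ± 0.17 (adjusted p = 0.0297, limma) with mutant pollen and -0.44 ± 0.17 (adjusted p = 0.0546) with wild-type pollen. The call with mutant pollen was lost without unpollinated array 1 or 2 or mutant array 1 or 2 (adjusted p = 0.0575 to 0.108). With wild-type pollen the difference was -0.29 (adjusted p = 0.183) without unpollinated array 1, and it passed without unpollinated array 3 (-0.57, adjusted p = 0.0212), wild-type array 3 (-0.54, adjusted p = 0.0411) or mutant array 1 (-0.44, adjusted p = 0.0447), with array medians subtracted (-0.57, adjusted p = 0.0123) and after quantile normalization (-0.64, adjusted p = 0.0082). SWEET9, which exports sucrose into nectar and was the only nectary marker with a listed probe set, was at 6.02, 6.25 and 6.09 with mutant pollen, 6.10, 6.62 and 6.52 with wild-type pollen, and 7.58, 6.85 and 6.13 in unpollinated pistils. Its unpollinated arrays spread from the level of the pollinated ones to well above it, and it did not pass with mutant (-0.73, adjusted p = 0.0658) or wild-type pollen (-0.44, adjusted p = 0.25). SWEET3 of clade I showed the same spread, with unpollinated arrays at 8.57, 8.70 and 7.36 against 7.23 to 7.72 on the pollinated ones. It did not pass with mutant (-0.74, adjusted p = 0.0686) or wild-type pollen (-0.70, adjusted p = 0.078), but without unpollinated array 3 it did (-1.16, adjusted p = 0.000256, and -1.13, adjusted p = 0.000281), as it did with array medians subtracted (-0.85, adjusted p = 0.0382, and -0.84, adjusted p = 0.0365). Without unpollinated array 2 the SWEET3 differences were -0.49 (adjusted p = 0.228) and -0.46 (adjusted p = 0.255). SWEET9 passed without unpollinated array 3 as well (-1.10, adjusted p = 0.00282, and -0.80, adjusted p = 0.0131), whereas without unpollinated array 1 its differences were -0.37 (adjusted p = 0.197) and -0.08 (adjusted p = 0.804). With wild-type pollen the SWEET9 difference was -0.28 (adjusted p = 0.532) without wild-type array 1. With mutant pollen SWEET9 also passed with array medians subtracted (-0.84, adjusted p = 0.0334) and after quantile normalization (-0.85, adjusted p = 0.0307). SWEET6, SWEET14 and SWEET16 were dim, between 3.73 and 4.31 on all arrays, and did not pass. SWEET6 had a log2 difference of -0.12 (adjusted p = 0.313) with mutant pollen and -0.18 (adjusted p = 0.138) with wild-type pollen. Without unpollinated array 3 both passed (-0.21, adjusted p = 0.0482, and -0.27, adjusted p = 0.0176), and with wild-type pollen SWEET6 passed with array medians subtracted (-0.31, adjusted p = 0.0129) and after quantile normalization (-0.27, adjusted p = 0.0468).

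**Figure D4:**
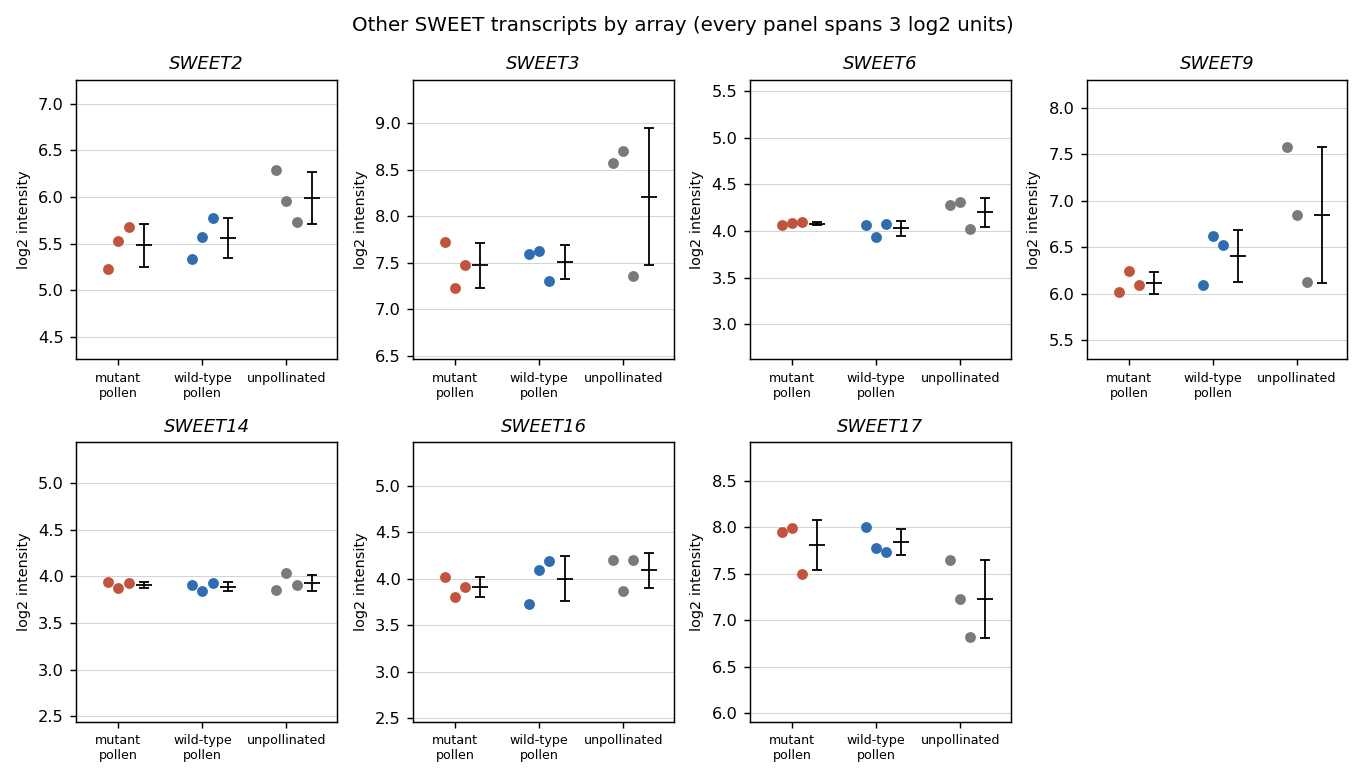
Log2 intensity (vertical axis) of the other 7 SWEET genes on each array, with mutant pollen, wild-type pollen and no pollination from left to right, means ± SD (n = 3) as bars and 3 log2 units per panel. Unpollinated array 3, the right-hand grey point, is the lowest of its group for SWEET2, SWEET3, SWEET6, SWEET9 and SWEET17.

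SWEET carriers act beside proton-driven uptake carriers and sugar-cleaving enzymes, of which few had a listed probe set. None of the 9 SUC sucrose uptake carriers, 9 neutral invertases, 6 sucrose synthases and 4 hexokinases did. Of the 14 STP hexose uptake carriers 4 were measured, and among them 0 rose and 2 fell with mutant pollen, while 2 rose and 1 fell with wild-type pollen. That is 50% and 75% of only 4 genes, where 41.5% and 43.6% of all probe sets passed. STP10 was at 4.56, 4.98 and 4.35 with mutant pollen, 6.84, 7.56 and 6.68 with wild-type pollen, and 4.01, 4.08 and 4.26 without pollination. Its mutant arrays were all above the unpollinated ones, but the difference did not pass (0.51, 95% interval 0.03 to 1.00, adjusted p = 0.0855, limma). That difference passed in 2 of 7 other settings and without 1 of the 9 single arrays, wild-type array 2 (adjusted p = 0.0246, limma). STP10 and STP8 were lower with mutant than with wild-type pollen, by 2.40 ± 0.22 (adjusted p = 0.001, limma) and by 1.64 ± 0.11 (adjusted p = 0.000157, limma), both beyond the 95% intervals of all 9 SWEET genes. The remaining STP gene to fall with wild-type pollen, STP3, had a log2 difference of -0.38 ± 0.14 (adjusted p = 0.0423, limma), and it also fell with mutant pollen (-0.37 ± 0.14, adjusted p = 0.0485, limma). Each STP3 call was lost when any of 6 single arrays was left out. The call with mutant pollen was also lost in 4 of 7 other settings. With wild-type pollen it was lost in 1 of 7, when 16 was added to every intensity (adjusted p = 0.0516, limma).

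Of 13 vacuolar and polyol sugar carriers 6 were measured, and 2 rose and 1 fell with either kind of pollen. That is 50% in each comparison, near the 41.5% of all probe sets that passed with mutant pollen and 43.6% with wild-type pollen. The vacuolar sugar importer genes TMT1 and TMT2 rose by 0.50 ± 0.08 and 0.30 ± 0.08 with mutant pollen and by 0.45 ± 0.08 and 0.33 ± 0.08 with wild-type pollen. SFP2, of the ERD6-like sugar carriers, fell by 1.12 ± 0.09 with mutant pollen and by 0.92 ± 0.09 with wild-type pollen. Of 8 cell wall and vacuolar invertases 2 were measured, and CWINV6 rose by 0.25 ± 0.08 with mutant pollen (adjusted p = 0.0375, limma) and by 0.34 ± 0.08 with wild-type pollen (adjusted p = 0.00763, limma). CWINV6 was dim on all arrays, with mean intensities of 14.1 with mutant pollen, 15.1 with wild-type pollen and 11.9 without and no array above 16, all under the 18.3 to 20.3 that ends the lowest 25% of probe sets. Its call with mutant pollen was lost in 5 of 6 other settings and without 4 of the 9 single arrays, and its call with wild-type pollen with array medians subtracted (0.21, adjusted p = 0.0659). The TMT2 calls were lost with array medians subtracted and, with mutant pollen, without mutant array 3.

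For the SWEET genes with a difference of at least 1 on the log2 scale, SWEET8 and SWEET11, the most similar patterns over the 9 arrays were sought among 13420 named probe sets. Likeness was the root mean square difference between log2 values, each probe set centred on its own mean, so a smaller value is more alike. Nearest to SWEET8 were AT2G16660 (0.137), AT5G06610 (0.159) and AT3G14520 (0.16). Nearest to SWEET11 were AT3G10250 (0.098), AT3G60290 (0.115) and AT3G55590 (0.124). The genes nearest to SWEET8 had log2 differences of 1.04 to 1.27 with wild-type pollen, and those nearest to SWEET11 -1.15 to -0.93. Differences near those of SWEET8 and SWEET11 follow from the choice, since these genes were picked for likeness over the same arrays.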

How the data were processed

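The authors deposited a linear array intensity per probe set. RMA, the Affymetrix Expression Console and Partek are named, per the submitters' processing notes, and versions and build are not given in the sources used here. RNA of 100 ng was labelled with a 3' IVT kit, per the labels' protocols. Scanner files and detection calls were not used. A dim probe set is therefore not called absent, and the number of arrays limits the precision.

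Intensities, 6.4 to 27175.1, were turned to log2. Of 22810 probe sets 64 controls were left out. The platform annotation listed 1 gene for 13513 probe sets, several for 503 and none for 8730; symbols follow TAIR10.1. Groups came from the sample titles. One linear model over all 9 arrays, with a mean for each group, was computed in R 4.3.3 by limma 3.58.1 (6 residual and 4.24 prior degrees of freedom), and p-values were adjusted by Benjamini-Hochberg over 22746 probe sets. SE pools the spread of the groups, and the same 3 unpollinated arrays enter both pollination comparisons. Whether replicates came from separate plants is not stated beyond "biological", so p-values measure the spread between these collections. The fit was tested on simulated data.

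Members, sugar lists, marker lists and settings were chosen with earlier results of these data known. Named were all SWEET genes, up to 4 genes per sugar list that passed with wild-type pollen and up to 3 that passed between pollen genotypes, markers as counts with examples, and the 3 genes nearest in pattern. The model had no block for replicate numbers, since deviations of same-numbered arrays correlated at -0.162 to 0.313. Alternatives were 2 scalings, trended and robust variance, the compared groups alone, a filter at log2 6, an offset of 16, a replicate block and leaving out each array.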

Additional observations from a re-analysis of the deposited data

How the results depend on the processing

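SWEET4, SWEET8, SWEET10, SWEET11 and SWEET13 kept their direction and their call from unpollinated pistils in both comparisons under every alternative in which they were tested, and no SWEET gene passed between the pollen genotypes under any. The filter at log2 6 removed SWEET5 and SWEET13, so 1 named gene was higher with mutant pollen. Subtracting array medians shifted all differences by -0.11 with mutant pollen and by -0.136 with wild-type pollen. It gave 5 lower genes among the 9 named SWEET genes in each. Of the other SWEET genes, SWEET2, SWEET3 and SWEET9 were then lower with mutant pollen, and SWEET2, SWEET3 and SWEET6 with wild-type pollen. Calls over all probe sets were then 3578 higher and 6633 lower with mutant pollen and 3607 and 7579 with wild-type pollen (35% and 32.2% higher), against 53.8% and 53.7% higher as deposited (5083 and 4367, 5328 and 4596). Renewed quantile normalization gave 43.8% and 43.5%. Between the pollen genotypes 6 probe sets were higher and 65 lower. There were 11 higher with the compared groups alone, and 3 higher and 35 lower with the filter. Leaving out each array gave 3 to 16 higher and 32 to 69 lower there, and 3 to 5 lower among the 9 named SWEET genes with mutant pollen. The cause of these shifts was not tested. In a fit with the replicate block, SAG29 passed with mutant pollen (-0.58, adjusted p = 0.048) and SWEET3 with mutant (-0.74, adjusted p = 0.0392) and wild-type pollen (-0.70, adjusted p = 0.0448), and no other SWEET call changed. The calls of STP3 and CWINV6 with mutant pollen were lost under the block, and STP10 passed there (0.51, adjusted p = 0.0419). Same-numbered arrays did not deviate together in every pair.

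Signs turned where differences were small and not called. With array medians subtracted, mutant minus wild-type differences were 0.0068 for SWEET4, 0.0006 for SAG29 and 0.0034 for SWEET17, and STP8 with mutant pollen against unpollinated was -0.0871 (-0.1897 after quantile normalization, which also gave -0.0065 for SWEET14 between genotypes). With 1 array left out, mutant minus wild-type differences ran from -0.2283 to 0.1167 for SWEET1, -0.1905 to 0.0488 for SWEET2, -0.1569 to 0.0881 for SWEET3, -0.4446 to 0.0301 for SWEET13, -0.0034 to 0.0407 for SWEET14, -0.2896 to 0.1754 for SAG29, -0.1117 to 0.1333 for SWEET17, -0.1357 to 0.1194 for STP3, -0.0901 to 0.015 for TMT2 and -0.085 to 0.15 for PLIM2a. Mutant pollen against unpollinated ran from -0.0423 to 0.0484 for SWEET5, -0.0582 to 0.0306 for SWEET14 and -0.1087 to 0.1059 for STP8, and wild-type pollen against unpollinated from -0.081 to 0.0078 for SWEET14 and -0.1968 to 0.0502 for SWEET16.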

Other observations

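Within groups, single arrays were low or high for several SWEET genes together. Besides unpollinated array 3, wild-type array 1 was the lowest of its group for 7 of the 9 named SWEET genes, where it was the lowest for 36.8% of all probe sets, and wild-type array 3 was the highest for 6 of the 9, against 46.3% of all probe sets. Mutant array 1 was the lowest of its group for 5 of the 9, against 31.9% of all probe sets. Unpollinated array 1 was the highest of its group for 6 of the 9, against 31.8% of all probe sets. The part of these arrays in the results was not tested beyond leaving each out.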
